A study of Saccharomyces cerevisiae with 28 samples.

Results

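GTS1 (YGL181W) is 1 of 982 budding yeast genes named on a splicing-specific two-colour microarray. It was read by 1 probe of 1536, printed as 6 of the 9216 spots, with 3 copies in each of 2 places on the array, and every one of its 168 spot values on the 28 arrays was present. The gene was chosen by measured values of these arrays, its high log ratios in the isy1 and ist3 deletion strains, so its values are given as a description, with no test. They chose it and support nothing further.

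Gts1 is an ArfGAP-domain zinc finger protein. ArfGAPs switch off small GTPases of the ARF family by promoting GTP hydrolysis, and Gts1 acts on Arf3 at the cell cortex, in endocytosis and actin organisation. It is also known from work on the metabolic oscillation of continuous yeast cultures, on stress tolerance and on flocculation.

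The name carries an ambiguity that touches every value. RefSeq lists FHT1 and LSR1 as synonyms of GTS1, and LSR1 is also the symbol of the gene for the U2 snRNA (YNCB0019C). U2 is the spliceosomal RNA that pairs with the branch site of introns. No probe on the array is named for any of the 6 snRNA genes in the RefSeq table, and 79 probes have no gene. The sources used here do not say which RNA the probe follows, so the values below are those of "the GTS1 probe". Of the measured genes, 24 have a synonym that is another gene's symbol.

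The study compared total RNA from 8 single deletion strains with wild type, 2 arrays per condition. The strains csn12, YPR045C, ist3, csn9, pci8 and isy1 were in log phase, with 30 °C as their recorded temperature. The strains tgs1 and ynr004w were grown at 30 °C and sampled there (0 min) and 10, 25 or 40 min into growth at 16 °C. This makes 14 conditions and 28 arrays. In each pair the mutant was in Cy5 on the first array and in Cy3 on the second, so the pair mean cancels a dye effect. Isy1 belongs to the Prp19-associated complex of the spliceosome, and Ist3 to the U2 snRNP-associated RES complex. Tgs1 trimethylates the caps of snRNAs and snoRNAs, and Csn9, Pci8 and Csn12 are known from the COP9 signalosome-like complex. YPR045C is also called THP3, and ynr004w lacks SWM2.

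Values are log2 ratios after centring each array on its median. Mutant over wild type is the likely direction, because channel 1 held the mutant on every array, but it is not settled; in the opposite direction every sign below turns. Ranks count from the highest gene, and the rank with all signs turned is given beside each. The log base was read as 2 and is not given in the labels. Within one dye orientation, 0 of 91 pairs of arrays correlated below -0.3. Nothing in the labels says that the 2 arrays of a pair came from separate cultures, so their spread may be technical. The wild type's own variation enters each ratio, and in whole-culture RNA fewer cells of a type and less RNA per cell cannot be told apart. The wild type of the isy1 arrays was labelled as that of the other log-phase strains, and the labels do not say whether it was shared. The isy1 arrays were the only arrays with their number code in the titles, so for isy1 strain and code cannot be told apart. Probes for deleted genes were not clearly lower in their own strain: the IST3 probe read 0.15 in ist3, the ISY1 probe -0.12 in isy1, and the TGS1 probe -0.09 in tgs1 at 30 °C and -0.18, -0.33 and -0.32 at 16 °C. These values do not bear out the deletion labels, and whether the probes lie in the deleted parts was not analysed here. Every strain name below therefore stands for the arrays labelled with it.

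The highest value of the GTS1 probe was in isy1. It read 3.21 on the array with the mutant in Cy5 and 1.61 on the array with the mutant in Cy3, a mean of 2.41 (SD 1.13, n = 2 arrays), or 5.31-fold. This was rank 1 of 982 genes, or 982 with signs turned. The single spots spanned 2.45 to 3.96 on the Cy5 array and 1.40 to 1.80 on the Cy3 array, so both arrays were high on all 6 spots but differed from each other by more than the spots did. TDH1, a glycolytic glyceraldehyde-3-phosphate dehydrogenase, came next at 2.33, closer to the GTS1 probe than the spread between its 2 arrays.

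In ist3 the probe read 0.85 and 0.86, a mean of 0.86 (SD 0.0095, n = 2 arrays), rank 6 of 982, or 977 with signs turned. Of the 14 pairs this one had the closest arrays. The other strains with the same title code were lower: YPR045C read 0.15 and 0.45 (mean 0.30, rank 39, turned 944), and csn12 read 0.13 and 0.34 (mean 0.24, rank 119, turned 864).

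The probe was below 0 in csn9 and pci8, which share a title code. In csn9 it read -0.54 and -0.52, a mean of -0.53 and rank 967 of 982, or 16 with signs turned. In pci8 it read -0.31 and -0.11, a mean of -0.21 and rank 871, or 112 with signs turned. All 4 array means were below 0, but on the pci8 Cy3 array 3 of the 6 spots were at 0.0067 to 0.0069, and the lowest were at -0.51 and -0.18. With the median of spots in place of the mean the pci8 level was -0.13. Some of these spots held a value that other spots shared. A spot was counted so when at least 5 other spots of its block lay within 0.0005 of it. This held for 10 of the 168 GTS1 spots: 3 on the csn9 Cy5 array, 3 on the pci8 Cy5 array and 4 on the pci8 Cy3 array. Of all such spots, ribosomal protein genes held 50.4% on the pci8 Cy3 array, against 21.5% of all its spots. They held 33.3% against 21.6% on the pci8 Cy5 array and 11.4% against 21.3% on the csn9 Cy5 array, so the arrays differed in this. Spot intensities were not analysed here, and the part of these shared values in the result was not tested. Without them the mean was -0.64 in csn9 and -0.37 in pci8.

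**Figure D1:**
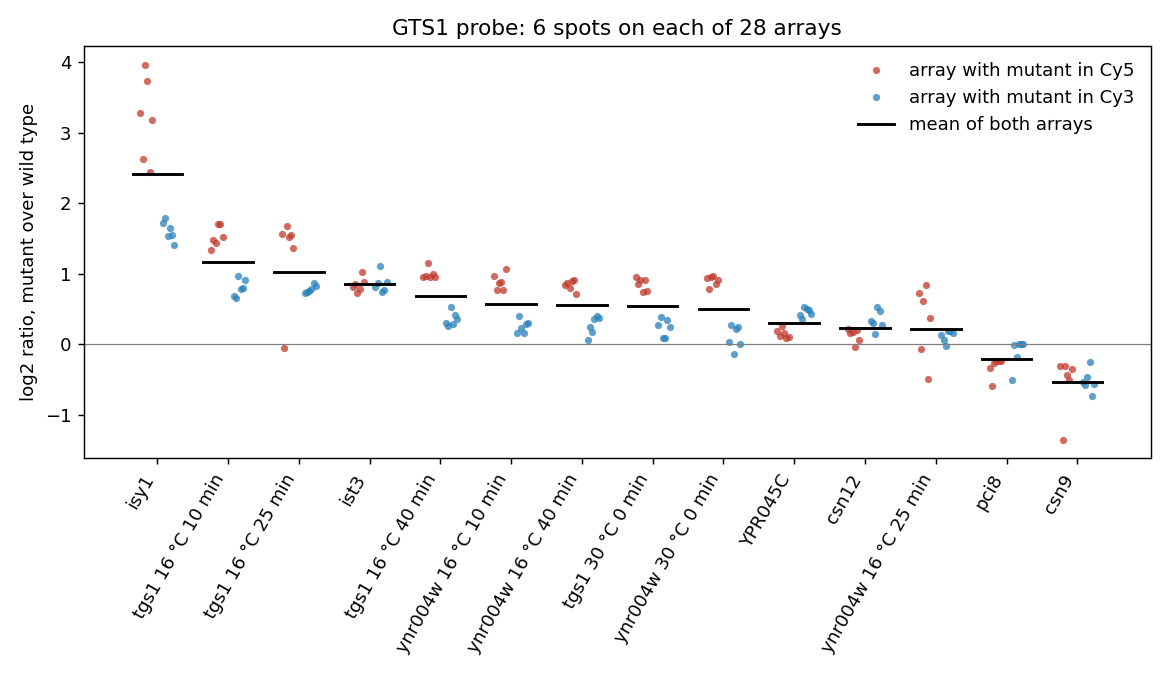
Each point is one spot of the GTS1 probe, as a log2 ratio of mutant over wild type, for the 28 arrays of the 14 conditions. A bar marks the mean of both arrays of a condition. Only csn9 and pci8 have both array means below 0, and the isy1 arrays are the highest, with array means of 3.21 and 1.61.

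In tgs1 at 30 °C the probe read 0.85 and 0.24, a mean of 0.55. At 10 min of 16 °C it read 1.53 and 0.80, a mean of 1.17. At 25 min it read 1.27 and 0.78, a mean of 1.03. All 3 means were rank 3 of 982 (980 with signs turned), as was the mean of 0.68 at 40 min (1.0 and 0.36). The genes above it in each were MFA2 and MFA1, which encode a-factor, the pheromone of MATa cells.

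Relative to 30 °C the tgs1 value was 0.62 higher at 10 min, 0.48 at 25 min and 0.14 at 40 min, a mean of 0.41 (SD 0.25, n = 3 time points). Each difference was above 0 within both dye orientations. The 3 differences share the 30 °C arrays, so they are not independent of each other.

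In ynr004w the probe read 0.90 and 0.10 at 30 °C (mean 0.50). It read 0.89 and 0.26 at 10 min (mean 0.58), 0.33 and 0.12 at 25 min (mean 0.23), and 0.84 and 0.27 at 40 min (mean 0.55). The differences from 30 °C were 0.07, -0.28 and 0.05, a mean of -0.05 (SD 0.20, n = 3 time points), within their own spread of 0. The dye orientations differed in sign at every time, with -0.01, -0.57 and -0.06 for the mutant in Cy5 and 0.16, 0.02 and 0.16 for the mutant in Cy3. Set against ynr004w at the same time, tgs1 was 0.04 higher at 0 min, 0.59 at 10 min, 0.80 at 25 min and 0.13 at 40 min. At 10, 25 and 40 min the difference was above 0 in both dye orientations, and at 0 min it was -0.05 in one and 0.13 in the other.

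**Figure D2:**
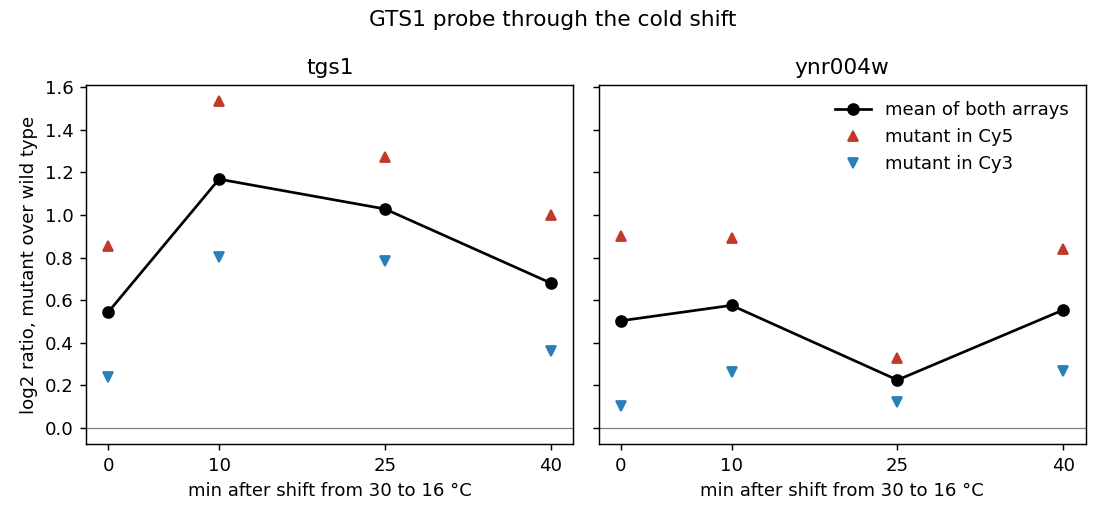
The log2 ratio of the GTS1 probe in tgs1 and ynr004w is plotted against minutes after the shift from 30 to 16 °C, with triangles for single arrays and circles for the mean of both. The tgs1 mean goes from 0.55 to 1.17 at 10 min and is 0.68 at 40 min, while the ynr004w means lie between 0.23 and 0.58.

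Ordered by level, the conditions ran isy1, tgs1 at 10 min, tgs1 at 25 min, ist3, tgs1 at 40 min, ynr004w at 10 and 40 min, tgs1 and ynr004w at 30 °C, YPR045C, csn12, ynr004w at 25 min, pci8 and csn9. In 10 of the 13 steps of this order the arrays of the neighbours overlapped. The steps without overlap were isy1 to tgs1 at 10 min, ynr004w at 25 min to pci8, and pci8 to csn9. The level was above 0 in 12 of 14 conditions and on 24 of 28 arrays, and both arrays had one sign in 14 of 14 pairs.

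The 14 levels had a median of 0.55 and an SD of 0.69, or 0.47 over the 13 levels without isy1. The array with the mutant in Cy5 was the higher one in 9 of 14 pairs. These were isy1 and all tgs1 and ynr004w pairs, so the sign of this dye difference split by title code. In csn12, YPR045C, ist3, csn9 and pci8 the Cy5 array was lower, by little in ist3 (-0.01) and csn9 (-0.02). The SD over the 6 spots of an array was 0.052 to 0.66 with a median of 0.123, and it exceeded that array's median probe on 6 of 28 arrays. The 2 places differed by at most 0.2 on 23 of 28 arrays. Some copies lay apart from the rest of their array, as picked by eye. Examples are -1.35 on the csn9 Cy5 array, -0.06 on the tgs1 25 min Cy5 array, and -0.07 and -0.50 on the ynr004w 25 min Cy5 array. The pci8 arrays had such copies too, at -0.58 with the mutant in Cy5 and at -0.51 with it in Cy3.

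**Figure D3:**
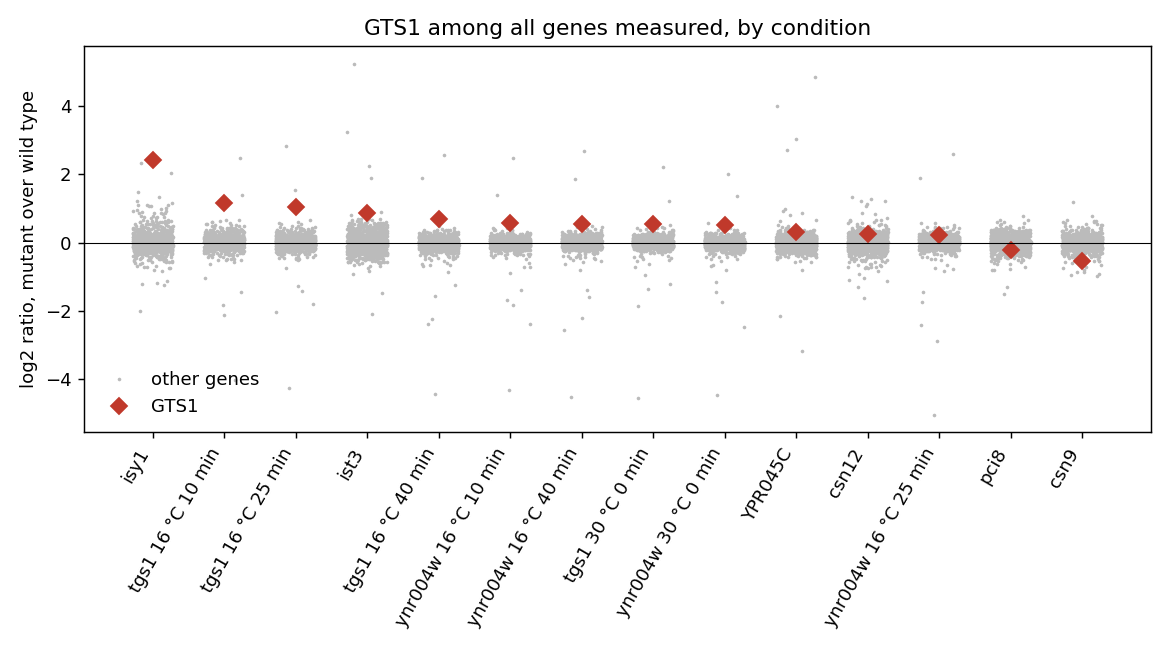
The GTS1 probe is set against all 982 genes in each of the 14 conditions, on the log2 ratio scale. It is rank 1 in isy1, 6 in ist3 and 967 in csn9, or 982, 977 and 16 with signs turned.

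The mating type markers differed widely between conditions, and not always with the GTS1 probe. MF(ALPHA)1, the alpha-factor gene of MATalpha cells, was at 5.24 in ist3 with MFA2 at -2.10. YPR045C had a like shift, with MF(ALPHA)1 at 4.84, MATALPHA1 at 3.99 and MFA2 at -3.16, at a GTS1 value of 0.30. In csn12 MATALPHA1 was at 1.06 and MFA1 at -1.13, with MF(ALPHA)1 at 0.06. In tgs1 and ynr004w MF(ALPHA)1 was at -4.03 to -5.04 and MFA2 at 2.02 to 2.82. In isy1 MF(ALPHA)1 was at 0.34 and MFA2 at 0.63, and in csn9 and pci8 MF(ALPHA)1 was at 0.60 and 0.61. Of the 13 markers listed, 7 were measured. Their part in the GTS1 values was not tested.

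Of the 6 genes nearest to GTS1 on the chromosome, 1 was measured. MPT5, a Puf-family regulator of mRNA, lay between -0.25 and 0.35 over the 14 conditions and at 0.21 in isy1.

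The genes whose pattern was most like that of the GTS1 probe were ranked by Pearson's r over the 14 pair means, with no test, since conditions share title codes and may share wild-type RNA. PMP3, a small plasma membrane protein gene, came first at r = 0.97. Its values were 0.79 in isy1, 0.30 and 0.32 in tgs1 at 10 and 25 min, and -0.25 and -0.28 in csn9 and pci8. CTR9, a subunit of the Paf1 transcription elongation complex, had r = 0.92. The other 6 of the 8 most like genes were tRNA genes, of 64 measured: YNCD0013C (0.93), CDC65 (0.91), YNCB0004W (0.89), tK(UUU)Q (0.89), SUP16 (0.88) and YNCD0021C (0.88). This ranking uses means over a gene's probes. Among single probes, a probe of HNT1 (0.95), of RPS26A (0.92) and of MOB1 (0.89) also came above SUP16. RPS26A encodes a small ribosomal subunit protein.

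The least like were RPS16A (-0.96), RPS14B (-0.93), RPS6B (-0.91) and SAR1 (-0.90). Each of these is a mean over 3 probes of its gene, while the 8 most like genes have 1 probe each. Which RNA forms the single probes read was not analysed here, so such a mean need not be an mRNA level. The first 3 encode small ribosomal subunit proteins and SAR1 a GTPase of COPII vesicle coating. RPS14B was at -1.25 in isy1 and 0.23 in csn9. Over all genes the median r was -0.0039, and 34 of 981 genes were above 0.8.

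Likeness depended in part on isy1. Over the 13 other conditions the 5 highest were tK(UUU)Q (0.95), CTR9 (0.95), PMP3 (0.93), tQ(UUG)Q and DBP7, the last 2 at 0.92, and 3 of these were also among the first 8. Within the 8 tgs1 and ynr004w conditions, which share a title code, r was 0.96 for CTR9, 0.96 for tK(UUU)Q and 0.95 for PMP3. It was 0.43 for SUP16 and 0.48 for YNCD0021C there, and -0.24 for RPS14B.

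**Figure D4:**
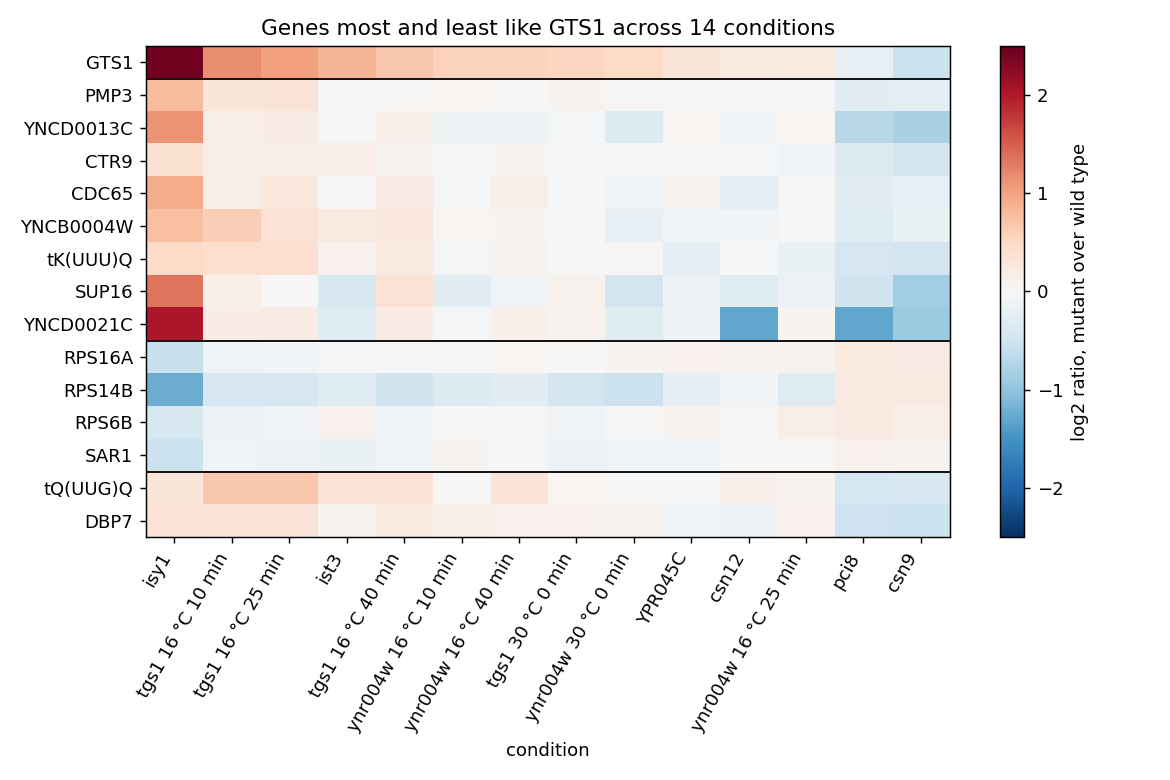
Rows are the GTS1 probe and the genes most and least like it, columns the 14 conditions, and colour the log2 ratio. PMP3 and CTR9 are high in isy1 and low in csn9 and pci8 as the GTS1 probe is, and RPS16A runs the other way.

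Genes of the processes in which Gts1 is known were read from 5 lists. Calls are from limma on pair means with a Benjamini-Hochberg adjusted p below 0.05 over all 982 genes. By that rule 42.2% of all genes were called in isy1, 56.4% in ist3, 36.8% in csn12, 18.9% in YPR045C, 21.9% in csn9 and 32% in pci8. It called 5.7% in tgs1 and 5.91% in ynr004w at 30 °C, and 46.1% and 32.8% at 16 °C. List counts are to be read against these shares. The share of all genes below an unadjusted p of 0.05 was not counted. List counts at that level therefore have no background here, and nothing is read from them. Every comparison is of a mutant with wild type at that temperature, so calls at 16 °C are not changes from 30 °C. In all comparisons but the 2 at 16 °C a strain has 1 pair of arrays and so no replicate of its own. There the spread is borrowed from the time points of tgs1 and ynr004w at 16 °C. Those time points are different conditions that stand in as replicates, so the spread behind every call includes change over time. The word "called" thus describes a size relative to that spread, and no p-value is printed.

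Of the ARF GTPase cycle list, 2 of 16 genes were measured, ARF2 and ARL3, both small GTPases. ARL3 was called lower in ist3, at -0.42, and in csn12, at -0.27. In tgs1 at 16 °C both were called lower, ARF2 at -0.15 and ARL3 at -0.11. In ynr004w at 16 °C ARF2 was called lower, at -0.11. In isy1 ARF2 was at 0.02 and ARL3 at -0.14, and limma called neither, with 0 below an unadjusted p of 0.05. No call was made in YPR045C, csn9, pci8 or either strain at 30 °C, where the unadjusted p was below 0.05 for 1 gene each in YPR045C, pci8 and ynr004w. With the arrays taken singly limma called neither gene in any comparison.

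Of the cortical actin and endocytosis list, 7 of 46 genes were measured. In isy1 ACT1, actin itself, was called higher at 0.25, and PFY1 (profilin) and SAC6 (fimbrin) lower at -0.29 and -0.18. In ist3 2 were called higher and 2 lower, with SAC6 at 0.41 and PFY1 at -0.25. SAC6 thus had opposite signs in isy1 and ist3. In tgs1 at 10 and 25 min of 16 °C, where the GTS1 probe was above its ist3 level, SAC6 was at 0.07 and 0.05. Elsewhere 2 were called higher in csn12, 2 higher in YPR045C, 1 higher in csn9 and 1 lower in pci8. At 16 °C 1 was called higher and 2 lower in tgs1, and 1 higher and 3 lower in ynr004w. At 30 °C limma called none in either strain, with 3 below an unadjusted p of 0.05 in each.

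Of the glycolysis and ethanol list, 5 of 25 genes were measured. In isy1 TDH1 was called higher at 2.33 and TYE7, a transcription factor of glycolytic genes, at 1.23, while GCR1 was called lower at -0.23. In ist3 all 5 were called lower, with TYE7 at -0.57, TDH1 at -0.56 and PGK1 at -0.49. TDH1 was at -1.35 to -1.72 in the tgs1 and ynr004w conditions, where the GTS1 probe was above 0. By count, 2 were called lower in csn12, 1 higher and 2 lower in YPR045C, 1 higher and 1 lower in csn9, and 1 lower in pci8. In tgs1 1 was called lower at 30 °C and 3 at 16 °C, and in ynr004w 1 and 2.

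Of the trehalose, heat and oxidative stress list, 9 of 34 genes were measured. In isy1 4 were called, all higher: the Hsp70 chaperone genes SSA2 at 1.157 and SSA1 at 1.01, SSE2 at 0.49 and the Hsp90 gene HSC82 at 0.37. In csn12 8 were called higher and 1 lower, with HSC82 at 1.28. In ist3 1 was called higher, HSC82 at 0.69, and 3 lower, with GPD1, of glycerol synthesis, at -0.82. At 16 °C 2 were called higher and 5 lower in tgs1, and 1 higher and 5 lower in ynr004w. These counts depended on single time points. In tgs1 0 were higher and 4 lower without 10 min or without 25 min, and 4 higher and 3 lower without 40 min. In ynr004w 0 were higher and 2 lower without 25 min, and 1 higher and 2 lower without 40 min. At 30 °C 1 was called higher and 2 lower in ynr004w, and limma called none in tgs1, with 3 below an unadjusted p of 0.05. In YPR045C 1 was called lower, in csn9 3 higher and in pci8 1 higher.

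Of the flocculation and Snf1/Tup1 list, 7 of 18 genes were measured. SNF4, a subunit of the Snf1 kinase, was called lower in isy1, at -0.33, as the 1 gene called there, and in ist3 2 were called higher and 2 lower. In csn12 2 were called higher, in csn9 1 higher, and in YPR045C and pci8 1 higher and 1 lower each. At 16 °C 1 was called higher and 2 lower in tgs1, and 1 lower in ynr004w. In tgs1 and ynr004w at 30 °C limma called none, with 2 in tgs1 and 1 in ynr004w below an unadjusted p of 0.05.

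With the arrays taken singly, most of these calls were lost. That fit takes both arrays of a pair as replicates, with a dye term common to all pairs. Its spread is thus the disagreement of dye-swapped arrays, and it is no check on replicate cultures. Of the 30 list members, the calls by limma went from 11 to 4 in isy1, 18 to 4 in ist3 and 16 to 7 in csn12. They went from 8 in YPR045C, 7 in csn9 and 5 in pci8 to 0 in each, with 2, 5 and 3 below an unadjusted p of 0.05. At 16 °C they went from 18 to 6 in tgs1 and from 14 to 3 in ynr004w, and at 30 °C from 1 to 2 and from 4 to 2. Of all 982 genes, the single-array fit called 95 in isy1, 76 in ist3, 46 in csn12, 10 in YPR045C, 3 in csn9 and 10 in pci8. It called 98 in tgs1 and 61 in ynr004w at 16 °C, and 9 in each at 30 °C. The adjusted list counts of that fit are to be read against these totals, and its unadjusted counts have no such total here. In isy1 the list members called were TDH1, TYE7, SSA1 and SSA2, all higher. In ist3 they were SAC6, higher, and PGK1, TYE7 and GPD1, lower. In csn12 6 stress genes were higher and 1 glycolysis gene, TDH1, was lower.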

How the data were processed

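The deposited value table holds 1 log ratio per spot, read as log2 values; how the authors scanned, background-corrected and normalized the arrays, and the log base and direction, is not stated in the sources used here. Per the labels, channel 1 was the mutant on all 28 arrays. All columns were matched to samples by name, and 0 stayed unmatched. Gene names are those of the platform annotation, updated to RefSeq symbols.

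After median centring of each array, means were taken over the 6 spots of a probe, then over both arrays of a pair, then over a gene's probes. Spots printed at mirrored positions were taken as one probe. limma 3.58.1 in R 4.3.3 was fitted to the 14 pair means in 10 groups, with 4 residual and 6.33 prior degrees of freedom. For the 8 groups with a single pair, the spread is borrowed from the 16 °C time courses. The 2-sided p-values were Benjamini-Hochberg adjusted over 982 genes. The fit was also run on data simulated from its own spread with independent noise, which cannot test whether the borrowed spread is right. Alternatives were single arrays with a dye term, the median of spots, other centring, scaling, and leaving out time points. The precision is limited by 2 arrays per condition.

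GTS1, the lists and the tests were chosen with earlier results of these data known. Named genes were GTS1, deleted genes, chromosomal neighbours, the 8 most and 4 least correlated genes, the 5 most correlated without isy1, the most changed called list members, and mating type markers.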

Additional observations from a re-analysis of the deposited data

How the results depend on the processing

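The GTS1 level stayed within the spread between arrays in 63 of the 70 alternative values that keep both arrays of a pair. This spread includes the dye difference that the pair mean cancels, and its SD ran from 0.0095 in ist3 to 1.13 in isy1. Where it is wide, staying within it says little. The 28 values that leave out 1 array are the single array values of the report, and cannot lie outside that spread by construction. In ist3, whose arrays were very close, the GTS1 level moved to 0.84 with the median of spots and to 0.72 with arrays scaled. In csn9 it moved to -0.47 with the median of spots, to -0.50 with centring on genes of 1 probe and to -0.76 with scaling. Without spots at a shared value, an alternative chosen after seeing the data, it was -0.64 in csn9 and -0.37 in pci8. The difference of 16 °C from 30 °C lay between 0.31 and 0.55 in tgs1 and between -0.11 and 0.06 in ynr004w. With single arrays and a dye term, equivalent to a replicate block by array number, limma called 46 genes in csn12, 10 in YPR045C, 76 in ist3, 3 in csn9, 10 in pci8 and 95 in isy1. It called 9 in tgs1 and 9 in ynr004w at 30 °C, and 98 and 61 at 16 °C. With scaling it called 468 in csn9, 536 in pci8 and 18 in tgs1 at 30 °C. Leaving out 1 time point gave 28 to 80 genes in tgs1 at 30 °C, 27 to 82 in ynr004w at 30 °C, 286 to 433 in tgs1 at 16 °C and 148 to 360 in ynr004w at 16 °C. The array numbers mark dye orientations, so they pair no cultures across strains; tgs1 and ynr004w are compared by matched time and dye in the report. The title code as a random block was not run, since each group lies in 1 code.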

Other observations

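NTG1, a base excision repair glycosylase gene, is in the same position as GTS1: its RefSeq synonym SCR1 is the symbol of the RNA of the signal recognition particle. Its probe was highest in isy1, at 0.13, and lowest in csn9 and pci8, at -0.58 and -0.50. Over the 14 conditions it had r = 0.81 to the GTS1 probe, where 34 of 981 genes were above 0.8. Which RNA the NTG1 probe follows was not tested. NTG1 and CBC2 were picked by hand, outside the rule for named genes. A probe with no gene had r = 0.93 to the GTS1 probe, with 1.26 in isy1, -0.33 in csn9 and -0.23 in pci8. Protein genes of the U2 snRNP, listed after the values were seen, were measured for 12 of 14 and lay between -0.38 and 0.30 in isy1, with a median of 0.04 against -0.01 for all genes. In ist3 they lay between -0.37 and 0.38. CBC2, of the nuclear cap-binding complex, was at -1.99 in isy1 and had r = -0.81 to the GTS1 probe.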
